A study of Ovis aries with 3 samples.

Results

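SLC14A1 encodes the urea transporter UT-B, and it was followed here through single-cell RNA libraries of sheep rumen epithelium. It was found as the row whose symbol is SLC14A1 (ENSOARG00000002395), which is 1 gene of 26247 listed in each library. The tissue came from Hu sheep at 42 days of age, and there were 3 libraries, 1 per diet: milk with alfalfa hay, milk with a concentrate starter, and milk only (called hay, concentrate and milk only below). Cells were released with trypsin and captured in droplets, and each captured molecule was counted once through its unique molecular identifier (UMI). The labels do not say how many animals went into a library. With 1 library per diet, the effects of diet, of the animal and of library preparation cannot be told apart, no test across libraries is possible, and every 95% interval below covers counting error only.

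UT-B is a channel-like protein that lets urea cross cell membranes down its gradient. In ruminants, urea made in the liver passes from blood across the rumen wall, where microbes release its nitrogen as ammonia and build protein from it, and UT-B in the rumen epithelium is one route for that passage. Outside the gut the gene is known from red blood cells, where in humans it carries the Kidd blood group, and from the vessels of the kidney medulla. In RefSeq's sheep gene table (assembly ARS-UI_Ramb_v3.0) SLC14A1 carries the synonym UT-B and lies between SLC14A2, which encodes the kidney-type urea transporter UT-A, and SIGLEC15, a sialic acid-binding receptor of myeloid cells. Keratinocytes of all libraries together held 0 UMIs of SLC14A2 and 9 UMIs of SIGLEC15, so few counts of the neighbouring genes were seen.

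After a filter of at least 500 genes and under 20% mitochondrial UMIs, 7031 hay, 4891 concentrate and 3850 milk-only cells remained. Of these, 6991 (99.4%), 4674 (95.6%) and 3402 (88.4%) were keratinocytes in the hay, concentrate and milk-only libraries, with 44433705 to 46928554 UMIs in each keratinocyte set. The median keratinocyte depth differed, at 5895 UMIs with hay, 8283 with concentrate and 11633 with milk only. Clusters that matched no marker list were counted as keratinocytes. Basal keratinocyte markers, 6 of 6 with a symbol detected, summed to 6591 to 8279 counts per 1000000 UMIs (CPM), of which KRT15 alone gave 6303 to 7985 CPM. The libraries shared few barcodes, 28 between hay and concentrate, 17 between hay and milk only and 15 between concentrate and milk only.

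SLC14A1 was a sparse transcript that was far more abundant in keratinocytes of both solid-feed libraries. Keratinocytes held 572 SLC14A1 UMIs in the hay library, 331 in the concentrate library and 34 in the milk-only library. As a level over all keratinocyte UMIs this was 12.7 CPM (11.7 to 13.8) with hay, 7.45 CPM (6.67 to 8.30) with concentrate and 0.725 CPM (0.502 to 1.01) with milk only. The 3 intervals did not overlap, and the order was hay, concentrate, milk only.

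The hay level was 17.5-fold that of milk only (12.4 to 25.6), and the concentrate level was 10.3-fold that of milk only (7.21 to 15.1). With every cell thinned to 2000 UMIs these ratios were 10.4-fold (5.18 to 24.5) and 5.10-fold (2.43 to 12.4), with 8 UMIs left in milk only. Between the 2 solid feeds the difference was smaller, with a concentrate level 0.587 times the hay level (0.511 to 0.673). Among 9492 genes with at least 100 UMIs over all keratinocytes, 2.18% were at least 2-fold higher in hay than in milk only with an interval excluding 1, and 3.54% were so in concentrate. Only 19 of those genes, SLC14A1 included, had a hay over milk-only ratio as large as that of SLC14A1, and 38 had a concentrate over milk-only ratio as large. The concentrate over hay ratio of SLC14A1 did not reach 2-fold at full depth, a size that 0.822% of genes passed in the lower direction, and 145 genes were as low or lower. With every cell thinned to 2000 UMIs it did pass 2-fold, at 6.40 CPM with concentrate against 13.1 CPM with hay.

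**Figure D1:**
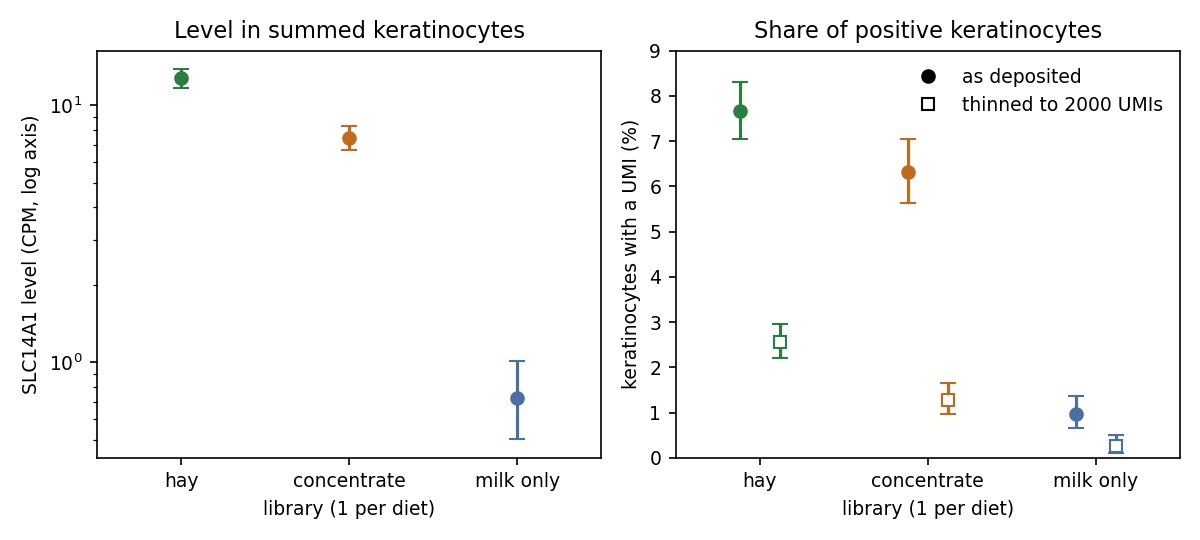
Level of SLC14A1 in CPM of summed keratinocyte UMIs and share of keratinocytes with at least 1 SLC14A1 UMI, for the hay, concentrate and milk-only libraries, with 95% intervals for counting error. The hay library is highest on both measures (12.7 CPM, 7.67%) and the milk-only library lowest (0.725 CPM, 0.970%).

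The share of keratinocytes in which the transcript was seen followed the same order. At least 1 UMI was found in 536 hay keratinocytes, or 7.67% (7.05 to 8.32, exact binomial interval), in 295 concentrate keratinocytes, or 6.31% (5.63 to 7.05), and in 33 milk-only keratinocytes, or 0.970% (0.669 to 1.36). Most positive cells held a single UMI, namely 502 with hay, 263 with concentrate and 32 with milk only, and no cell held more than 4. If every keratinocyte of a library had the same level, its cells' depths would give 545 positive cells with hay, 316 with concentrate and 33.7 with milk only. The observed counts lay at 536, 295 and 33 for hay, concentrate and milk only. Cells with 2 or more UMIs numbered 34 with hay, 32 with concentrate and 1 with milk only, where the same even spread would give 25.8, 14.6 and 0.267.

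Depth weighs on these shares, because positive cells were deeper than negative ones in each library. Their median was 6449 UMIs against 5844 in negative cells with hay, 12313 against 8075 with concentrate, and 21388 against 11568 with milk only. With every cell thinned to 2000 UMIs, SLC14A1 was seen in 2.56% of hay keratinocytes (2.20 to 2.96), in 1.28% of concentrate keratinocytes (0.977 to 1.65) and in 0.251% of milk-only keratinocytes (0.109 to 0.494). This left out 0, 68 and 218 shallower cells of the hay, concentrate and milk-only libraries, and the same cells without thinning gave 7.67%, 6.40% and 1.04%. At that depth 1 UMI in a cell equals 500 CPM, so the values are shares of cells with a molecule captured and not of cells that express the gene.

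In bands of similar depth hay was above milk only with separate intervals in each band, and concentrate was so from 4000 UMIs upward, while the order of the solid feeds depended on the band. At 2000 to 4000 UMIs the levels were 14.3 CPM (10.5 to 19.0) with hay, 1.60 CPM (0.194 to 5.79; 2 UMIs) with concentrate and 0.926 CPM (0.0234 to 5.16; 1 UMI) with milk only. Keratinocytes with 4000 to 8000 UMIs stood at 13.8 CPM (12.4 to 15.3) with hay, 5.15 CPM (3.88 to 6.70) with concentrate and 0.771 CPM (0.0934 to 2.78; 2 UMIs) with milk only. At 8000 to 16000 UMIs the levels were 11.2 CPM (9.47 to 13.1) with hay, 7.93 CPM (6.78 to 9.21) with concentrate and 0.453 CPM (0.182 to 0.933) with milk only. From 16000 UMIs upward the concentrate level was 9.53 CPM (7.77 to 11.6), above the hay level of 5.28 CPM (2.42 to 10.0), which rested on 9 UMIs in 88 cells, and milk only was at 0.875 CPM (0.561 to 1.30). The intervals of the solid feeds overlapped only in this deepest band. The level of the hay cells was lower in each deeper band and that of the concentrate cells higher.

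**Figure D2:**
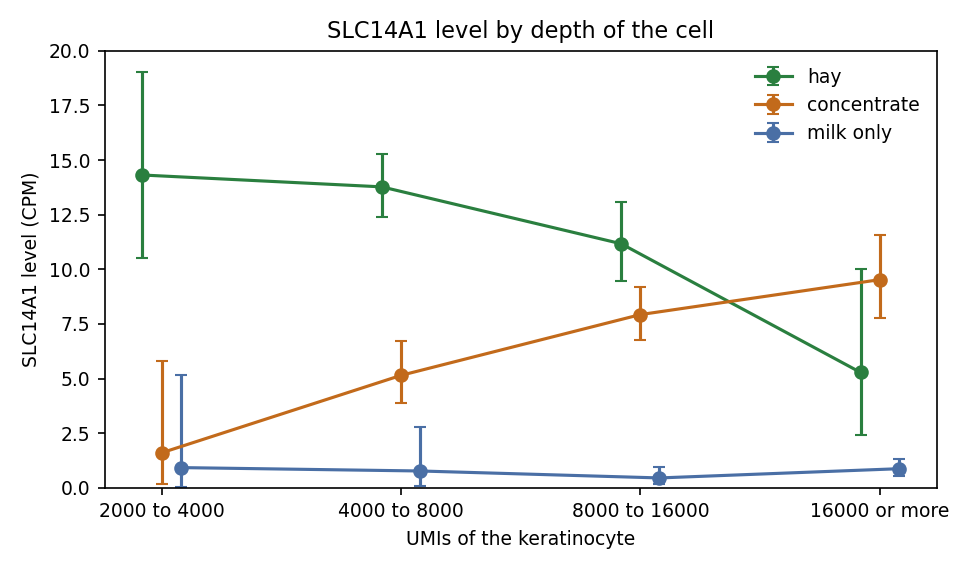
SLC14A1 level (CPM) in keratinocytes grouped by their total UMIs, for the hay, concentrate and milk-only libraries, with 95% Poisson intervals. Hay lies above concentrate from 2000 to 16000 UMIs and below it in the deepest band (5.28 against 9.53 CPM), and the milk-only point is lowest in each band, with an interval that overlaps concentrate at 2000 to 4000 UMIs.

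All SLC14A1 UMIs of the filtered cells lay in clusters counted as keratinocytes, which include those that matched no marker list. The T or NK cells and the macrophages or dendritic cells, which are not known for this transporter, held 0 UMIs in 578 cells with a median depth of 5035 UMIs, which allows a share of up to 0.519% and a level of up to 0.707 CPM. At the keratinocyte level of their own libraries these cells would have held 7.22 UMIs. Most of these cells came from the milk-only library, and within no single library was a difference between the cell types detectable. The limits were 17.8 CPM with hay, 9.50 CPM with concentrate and 0.798 CPM with milk only, each above the keratinocyte level of its library (12.7, 7.45 and 0.725 CPM for hay, concentrate and milk only). The 127 fibroblast-like and endothelial-like cells, almost all from the concentrate library, also held 0 UMIs, where 3.09 would be found at the keratinocyte level.

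Markers of red blood cells and of endothelium, which are known for UT-B, were also read in the keratinocytes. The erythroid markers other than CA1, which the rumen epithelium itself expresses strongly, were detected for 3 of 6 genes with hay, 3 of 6 with concentrate and 4 of 6 with milk only, and summed to 1.199, 0.900 and 1.13 CPM in hay, concentrate and milk only. SLC4A1, the red cell anion exchanger, and KEL were at 0 in every library, and any erythroid marker other than CA1 was present in 4 hay, 6 concentrate and 0 milk-only SLC14A1-positive cells. Endothelial markers summed to 1.69 CPM with hay, 2.66 CPM with concentrate and 2.56 CPM with milk only, and EMCN, ERG and PLVAP were at 0. The part of either list in the SLC14A1 levels was not tested.

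Within keratinocytes the transcript was absent from the counts of the differentiated cluster. This cluster was led by KRT36, a keratin, A2ML1, a protease inhibitor, and KRTDAP, a keratinocyte differentiation-associated protein. It held 60 hay, 48 concentrate and 824 milk-only cells, and SLC14A1 had 0 UMIs in all of them. These zeros allow up to 7.27 CPM with hay, 3.81 CPM with concentrate and 0.340 CPM with milk only. At the level of the keratinocytes outside this cluster and the TOP2A-led cycling cluster, 5.55 UMIs would have been found in the hay cells, 6.34 in the concentrate cells and 7.54 in the milk-only cells. The absence depended on how the cells were divided: with coarser clusters (Leiden resolution 0.3) the hay differentiated class grew to 315 cells with 11 UMIs, or 9.34 CPM (4.66 to 16.7), and the concentrate class to 149 cells with 1 UMI. With finer clusters (resolution 1.2) the class held 4 UMIs in 118 hay cells (4.09 CPM) and 4 UMIs in 97 concentrate cells (2.45 CPM), and the milk-only cells stayed at 0.

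Because the milk-only library held most of the differentiated cells, the diets were also compared class by class. Keratinocytes outside the TOP2A-led cycling cluster and the differentiated cluster were at 13.5 CPM (12.3 to 14.7) with hay, 8.06 CPM (7.14 to 9.07) with concentrate and 0.854 CPM (0.558 to 1.25) with milk only. This class still held a cluster led by the S phase genes BRCA1, UHRF1 and RRM2, with 472 hay, 22 concentrate and 3 milk-only cells. Over the whole class the hay over milk-only ratio was 15.7-fold (10.6 to 24.3), and the concentrate over milk-only ratio 9.43-fold (6.30 to 14.7). Over all keratinocytes, differentiated cells included, without the TOP2A-led, S phase and low-mitochondrial AKR1D1-led clusters, an alternative chosen after seeing the data, these ratios were 20.7-fold (14.0 to 32.1) and 11.9-fold (7.95 to 18.6). Cycling keratinocytes, marked by TOP2A and CENPF, stood at 10.0 CPM (7.95 to 12.4) with hay, 5.87 CPM (4.44 to 7.63) with concentrate and 1.04 CPM (0.450 to 2.05; 8 UMIs) with milk only. The ratios in cycling cells were lower, at 9.59-fold (4.65 to 23.0) for hay and 5.64-fold (2.67 to 13.7) for concentrate over milk only, with intervals that overlap those of the other keratinocytes. The concentrate over hay ratio was nearly the same in both classes, at 0.599 and 0.588.

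Most keratinocyte clusters belonged almost wholly to 1 library, so a cluster and a library cannot be told apart for them. The highest hay level was 16.4 CPM (14.7 to 18.3) in the cluster led by FBP1, a gluconeogenic enzyme, and CYP26A1 and ALDH1A1, which break down and make retinoic acid. It held 47.1% of the hay keratinocytes and 59.6% of their SLC14A1 UMIs. SLC14A1 itself was not used to form the clusters. Its level there was 1.73 times that of the other hay keratinocytes (1.46 to 2.05), and the 90 concentrate cells that fell in the same cluster had 17.6 CPM (9.61 to 29.5). The concentrate over hay ratio inside this cluster was 1.07 (0.579 to 1.82), from 14 concentrate UMIs, and in the cycling cluster it was 0.588 (0.411 to 0.836). It was 0.266 (0.0539 to 0.801) in the HSPA6-led cluster, 0.378 (0.107 to 2.04) in the CCDC80-led cluster and 0.278 (0.00646 to 1.91) in the AKR1D1-led cluster. Those rested on 3, 15 and 1 concentrate UMIs in that order. Each of these intervals overlapped that of the FBP1-led cluster.

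In the concentrate library the largest cluster, led by THEM5, an acyl-CoA thioesterase, and FABP4, a fatty acid carrier, had 8.99 CPM (7.89 to 10.2) and held 72.5% of the SLC14A1 UMIs in 56.9% of the keratinocytes. That was 1.75 times the level of the other concentrate keratinocytes (1.37 to 2.26). The cluster led by CCDC80 and FST, which encode a matrix protein and the activin antagonist follistatin, stood at 3.13 CPM (1.75 to 5.17), 0.393 times the rest (0.217 to 0.658). Cells led by the heat shock genes HSPA6 and HSPA1A were at 9.34 CPM (7.59 to 11.4) with hay, 0.681 times the other hay keratinocytes (0.542 to 0.848), and at 2.49 CPM (3 UMIs) with concentrate, 0.328 times the rest. In the milk-only library, 19 of 34 UMIs fell in the cluster led by GPNMB and AQP5 (1.195 CPM, 0.720 to 1.87), and the cluster led by ZFP36 and ATF3 had 0.494 CPM (0.199 to 1.02). Among keratinocyte groups of at least 100 cells, every hay group was above every milk-only group, and their intervals did not overlap. Smaller hay groups did overlap milk-only groups. These were the 60 differentiated hay cells (0 UMIs, 0 to 8.94 CPM) and 77 hay cells of the CCDC80 and FST cluster (3 UMIs, 8.29 CPM, 1.71 to 24.2).

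**Figure D3:**
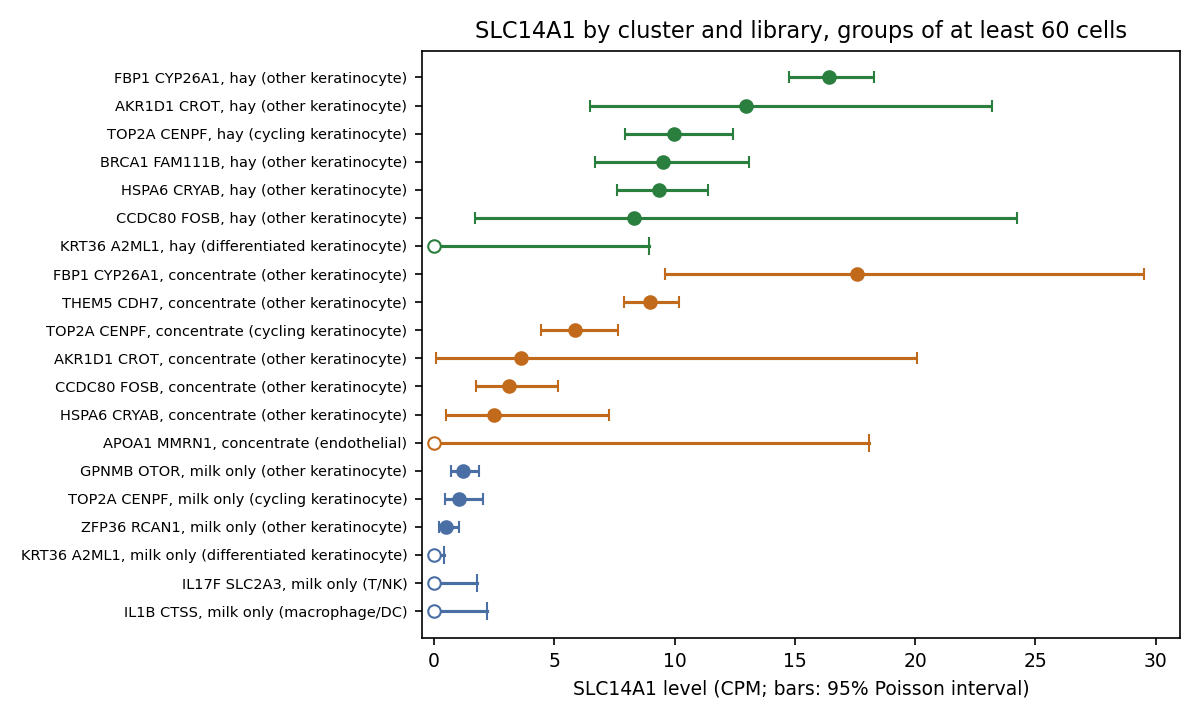
SLC14A1 level (CPM) in each cluster by library group of at least 60 cells, with 95% Poisson intervals, named by the 2 leading genes of the cluster and its class, with open circles for 0 UMIs. The FBP1 and CYP26A1 cluster is highest in hay (16.4 CPM) and concentrate (17.6 CPM), and no milk-only cluster exceeds 1.195 CPM.

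Other genes listed for urea and ammonia transport were mostly sparse, and not every listed gene is a known route for either. The 4 with at least 100 UMIs, AQP3, AQP5, TRPM6 and TRPM7, differed less between diets than SLC14A1 or ran the other way. SLC14A2, AQP9, AQP10, RHAG, KCNJ16 and KCNMA1 had 0 UMIs in every library, and others had a few, such as AQP4 with 0 UMIs in hay, 20 in concentrate and 21 in milk only. Of 11 genes on the list for urea transport and urea-permeable channels, 3 had at least 100 UMIs: SLC14A1, AQP3 and AQP5. AQP7, on the same list, had no single identifier and was not counted. AQP3, an aquaglyceroporin permeable to glycerol and urea, was at 3.42 CPM with hay, 2.81 CPM with concentrate and 2.11 CPM with milk only, or 1.62-fold (1.25 to 2.11) and 1.33-fold (1.02 to 1.75) over milk only for hay and concentrate. AQP5, a water channel, ran the opposite way, at 0.311 CPM with hay, 3.78 CPM with concentrate and 21.6 CPM with milk only. In hay it was 69.7-fold lower than in milk only (41.3 to 128), a direction in which 14.1% of all genes passed the 2-fold limit. In concentrate AQP5 was 5.73-fold lower (4.86 to 6.78), where 8.58% of genes passed. Between the solid feeds AQP5 was 12.2-fold higher in concentrate than in hay (7.05 to 22.7), a direction in which 6.81% of genes passed. The ammonium-permeable Rh glycoproteins RHBG and RHCG had at most 13 UMIs in any library. TRPM6 and TRPM7, magnesium channels on the same list, stood at 9.32 and 23.0 CPM with hay, 8.35 and 28.4 CPM with concentrate, and 5.77 and 28.7 CPM with milk only, and neither passed 2-fold.

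Genes that make or use urea nitrogen followed no single direction. CPS1 and OTC, the mitochondrial entry enzymes of the urea cycle, had 0 UMIs. Of 14 measured genes of the urea cycle and nitrogen metabolism, 1 was higher and 3 lower in hay than in milk only (median log2 ratio -0.37, against -0.25 over all genes), and 2 were higher and 1 lower in concentrate (median -0.19, against -0.02 over all genes). Over all genes 2.18% were higher and 14.1% lower in hay, and 3.54% higher and 8.58% lower in concentrate, so the lower counts lay near those shares. PYCR1, which makes proline, was higher in both, at 3.44 CPM with hay and 3.11 CPM with concentrate, while milk-only cells had 1.07 CPM. GPT2, the mitochondrial alanine transaminase, had 1.55 CPM with hay, 4.64 CPM with concentrate and 1.73 CPM with milk only. ARG1, the arginase that releases urea, had 5 UMIs with hay and 42 with concentrate against 282 with milk only, or 0.111, 0.945 and 6.01 CPM for hay, concentrate and milk only. OAT, which converts ornithine, was at 0.333 CPM with hay, 4.21 CPM with concentrate and 3.56 CPM with milk only. ASNS, asparagine synthetase, had 8.32 CPM with hay, 14.3 CPM with concentrate and 18.1 CPM with milk only, and its 2-fold call in hay was lost under median-of-ratios scaling.

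Carbonic anhydrases supply the bicarbonate and protons that accompany ion exchange in this epithelium. CA12, the membrane form, was 2.13-fold (2.09 to 2.18) and 2.998-fold higher than in milk only in hay and concentrate, and cytosolic CA2 was 4.41-fold higher in hay (3.82 to 5.12) with 21.4 CPM, while concentrate and milk-only cells had 4.66 and 4.86 CPM. No other of the 12 measured acid and bicarbonate genes passed 2-fold over milk only. Over all genes 2.18% were higher in hay and 3.54% in concentrate. Of 8 measured sodium, potassium and chloride transport genes, 3 were lower in both solid-feed libraries and 0 higher (median log2 ratio -0.63 in hay and -0.61 in concentrate, against -0.25 and -0.02 over all genes, of which 14.1% were lower in hay and 8.58% in concentrate). These were ATP1B1, a beta subunit of the sodium pump (86.4 CPM with hay, 123 CPM with concentrate, 436 CPM with milk only), KCNK1, a potassium channel, and SLC12A2, a chloride cotransporter with 3, 4 and 331 UMIs in hay, concentrate and milk only. The only measured gene on the list for short-chain fatty acid transport, SLCO2A1, did not pass 2-fold in either diet. Of the 13 genes on that list only 7 had a symbol carried by 1 identifier. SLC16A1 and BSG did not and were not counted, so the list gives no reading of this transport.

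Butyrate oxidation and ketogenesis turn a main product of rumen fermentation into fuel and ketone bodies. Among its 14 measured genes, 3 were higher and 4 lower in hay than in milk only (median 0.21), and 2 higher and 2 lower in concentrate (median 0.28). Over all genes 2.18% were higher and 14.1% lower in hay (median -0.25), and 3.54% higher and 8.58% lower in concentrate (median -0.02). HADH, which oxidises hydroxyacyl-CoA, had 58.6 CPM with hay and 43.6 CPM with concentrate, while milk-only cells had 21.1 CPM. ACADS, which starts butyrate oxidation, was 2.08-fold higher in hay (1.78 to 2.45) and 1.68-fold higher in concentrate. OXCT1, which spends ketone bodies, had 0.932 CPM with hay, 6.84 CPM with concentrate and 5.99 CPM with milk only. BDH2, ACSS2 and ACSM3 were the other genes lower in hay. The cornified and granular list was lower in both feeds for 6 of 7 measured genes (median -3.52 in hay and -2.91 in concentrate), beside the same all-gene shares. Outside the cycling and differentiated clusters the medians of this list were -1.24 and -1.07.

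**Figure D4:**
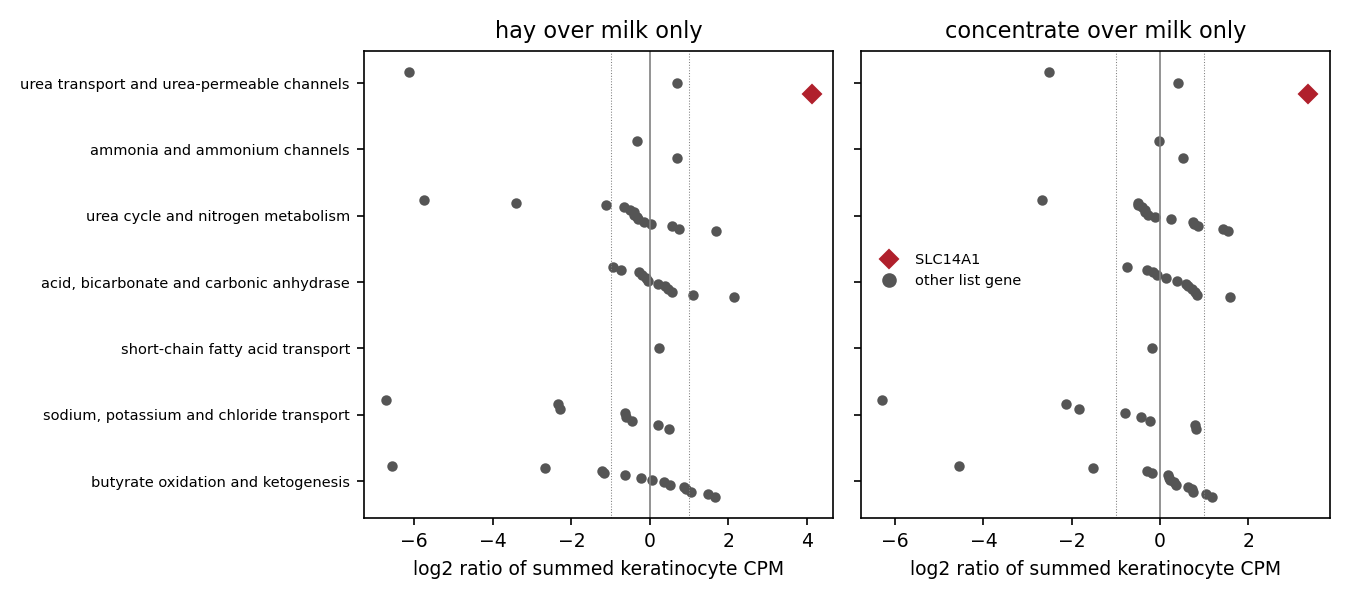
Log2 ratio of summed keratinocyte CPM, hay over milk only (left panel) and concentrate over milk only (right panel), for each measured gene of the transport and metabolism lists, with SLC14A1 as a diamond and dotted lines at 2-fold. SLC14A1 lies farther to the right than any other gene of these lists in both panels (4.13 and 3.36).

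Within each library, keratinocytes with an SLC14A1 UMI were compared with negative keratinocytes of the same depth. Such cells carried fewer transcripts of several genes of differentiated keratinocytes, and few genes were higher in them. Genes at least 2-fold higher with an interval excluding 1 numbered 2 of 5303 tested with hay (0.0377%), 15 of 5814 with concentrate (0.258%) and 12 of 2594 with milk only (0.463%). Genes at least 2-fold lower numbered 18 with hay (0.339%), 49 with concentrate (0.843%) and 58 with milk only (2.24%). Of the 18 lower in hay, 14 were also lower in concentrate and 13 in milk only. No gene was higher in more than 1 library, but with so few called higher an overlap was unlikely in any case. The milk-only values rest on 33 positive cells.

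KRT36 stood at 13.7 CPM in positive against 74.7 CPM in matched negative keratinocytes with hay, a ratio of 0.184 (0.137 to 0.242). With concentrate it had 3.39 against 187.7 CPM (ratio 0.0180), and with milk only 27.0 against 1265 CPM (ratio 0.0213). SPINK5, a skin protease inhibitor, was at 0.298 in hay (0.249 to 0.355), 0.0380 in concentrate and 0.0918 in milk only. A2ML1 was at 0.227, 0.0692 and 0.0179, and KRTDAP at 0.336, 0.106 and 0.195, for hay, concentrate and milk only. S100A9, a calcium-binding alarmin, stood at 0.295 in hay, 0.299 in concentrate and 0.178 in milk only. With negatives matched for cluster as well as depth, the ratios were closer to 1, at 0.456 in hay and 0.0969 in concentrate for KRT36, and at 0.856 in hay (0.527 to 1.32) and 0.656 in concentrate (0.358 to 1.12) for A2ML1. Of the tested granular and cornified genes, 3 of 4 were at least 2-fold lower in hay, 3 of 5 in concentrate and 6 of 7 in milk only, and of 6 tested spinous genes 1 was lower in hay, 1 in concentrate and 2 in milk only. Other members did not follow: ECM1, a skin matrix protein, was at 1.04, 1.09 and 1.01, and the desmosome genes DSP at 1.18, 1.29 and 0.851 and DSC3 at 1.24, 1.35 and 1.01, for hay, concentrate and milk only. TGM1, the transglutaminase of the cornified envelope, followed in part. It was lower in milk only, at 0.142 (0.0680 to 0.262). In hay it was at 0.379 (0.150 to 0.795), from 7 UMIs and under the minimum for a call. In concentrate it was at 0.798 (0.578 to 1.08). DCN, a matrix proteoglycan of fibroblasts that was also counted in keratinocytes (167 CPM with milk only), was low in positive cells too. With concentrate it had 1.94 against 15.5 CPM (ratio 0.125), and with milk only 43.6 against 96.8 CPM (ratio 0.451, 0.312 to 0.631). In hay its ratio was 0.274 (0.0558 to 0.820), from 3 UMIs and under the minimum for a call.

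The 8 genes with the highest ratios in hay and the 8 in concentrate had no member in common. Lists this short, drawn at random from 5226 genes tested in both libraries, would seldom share one, so this shows no difference between diets. In hay the highest ratios were those of TACC2, a centrosome-associated protein (1.85, 1.38 to 2.44), DCAF6, a ubiquitin ligase adaptor (1.74), TFRC, the transferrin receptor (1.62), PTBP1, a splicing regulator (1.62), SUOX, sulfite oxidase (1.59), UHRF2 (1.55), EVPL, the cell envelope protein envoplakin (1.54) and LMO4 (1.53). None of these passed 2-fold. In concentrate, 5 of those 8 were above 1, where 59.0% of the 5226 genes tested in both libraries were. The 2 hay genes past 2-fold, NUP188 (2.07) and FBXO38 (2.02), had 30 UMIs each and are named after their values were seen.

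In concentrate the highest were FZD4, a Wnt receptor (12.6 CPM in positive against 4.62 CPM in negative cells, ratio 2.73, 1.96 to 3.74), BMP2, a bone morphogenetic protein (19.8 against 7.74 CPM, ratio 2.56, 1.98 to 3.28) and CSRP2, a LIM-domain protein (49.1 against 21.7 CPM, ratio 2.26, 1.93 to 2.64). They were followed by MORC1 (2.11), the thioredoxin reductase TXNRD1 (1.92), the ubiquitin ligase RNF125 (1.91), the actin regulator VASP (1.87) and LAMB3, a laminin-332 chain of the basement membrane (1.79). In hay, 4 of these 8 were above 1, where 58.0% of all genes were. CSRP2 (1.499, 1.205 to 1.85) and LAMB3 (1.52, 1.06 to 2.12) were also above 1 in hay by their intervals, and BMP2 was not (0.963, 0.630 to 1.42). LAMB3 was high in milk-only positive cells too (2.69, 1.49 to 4.48).

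Ratios of most listed genes of metabolism lay close to 1, while several genes of the basal layer stood higher. All 11 tested butyrate and ketone genes were above 1 in concentrate (median log2 ratio 0.33, against 0.06 over all genes), 9 of 10 were above 1 in hay (0.23, against 0.04) and 4 of 6 in milk only (0.14, against 0.12). ACAT1, which condenses acetyl-CoA, was at 1.21 in hay, 1.49 in concentrate and 1.16 in milk only.

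Basal genes were above 1 for 6 of 8 in hay, 7 of 8 in concentrate and 4 of 5 in milk only, where 3073 of 5303, 3463 of 5814 and 1736 of 2594 tested genes were above 1 in hay, concentrate and milk only. Their median log2 ratios were 0.15, 0.38 and 0.35 in that order, against 0.04, 0.06 and 0.12 over all tested genes. KRT15, the most abundant basal gene, was at 0.938 (0.925 to 0.951) in hay, 0.983 (0.971 to 0.995) in concentrate and 1.19 (1.16 to 1.22) in milk only. Over clusters of all libraries together, KRT15 did not follow SLC14A1. It stood at 5387 CPM in the FBP1-led cluster (SLC14A1 16.4 CPM) and at 9101 CPM in the HSPA6-led cluster (SLC14A1 8.56 CPM). In the differentiated cluster KRT15 stood at 1644 CPM, with SLC14A1 at 0. ITGA6, the integrin of the hemidesmosome, was at 1.12 (1.03 to 1.21) in hay, 1.28 (1.19 to 1.38) in concentrate and 1.70 (1.44 to 2.001) in milk only. CA12 was at 1.28, 1.33 and 1.22 in hay, concentrate and milk only. ATP1B1 was below 1 in all libraries, at 0.684, 0.607 and 0.771 for hay, concentrate and milk only. LAMB3 and ITGA3, another basal integrin, stood at 2.69 and 2.71 in milk-only positive cells, from 15 and 10 UMIs, under the minimum for a call there.

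**Figure D5:**
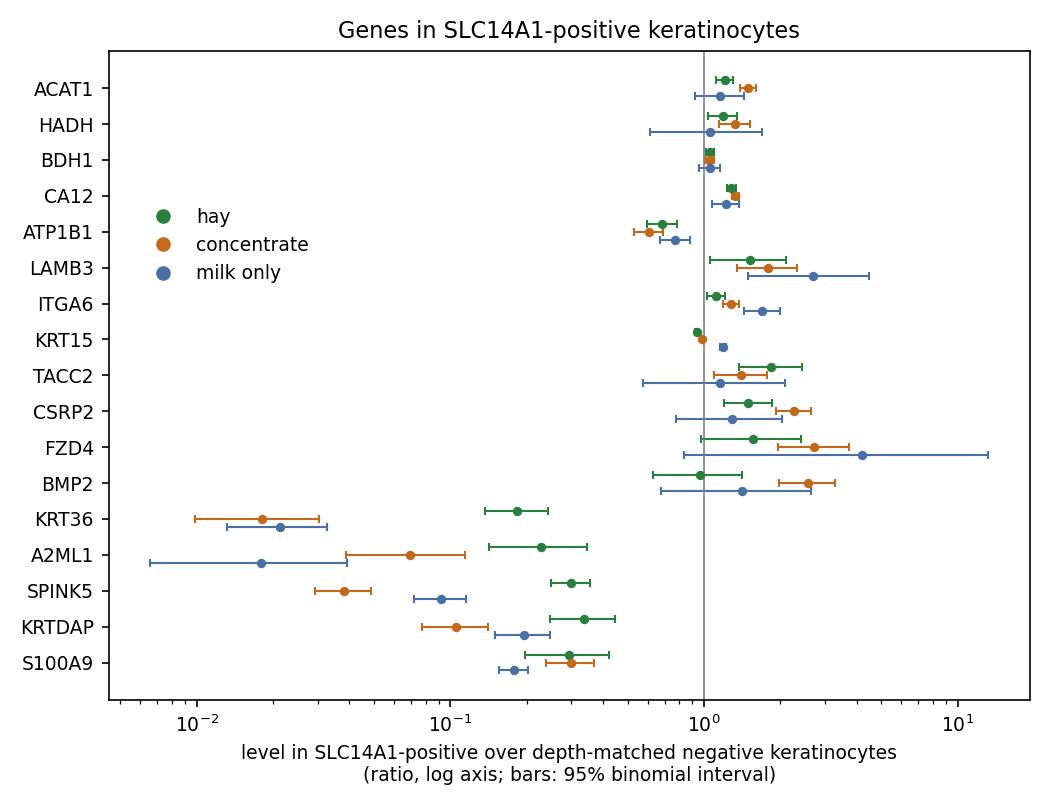
Ratio of each gene's level in SLC14A1-positive over depth-matched negative keratinocytes (log axis), with 95% binomial intervals, for the hay, concentrate and milk-only libraries. KRT36, A2ML1, SPINK5, KRTDAP and S100A9 lie far below 1 in all libraries, while most metabolic and basal genes lie near or slightly above 1. The basal gene LAMB3 lies higher, at 1.52 in hay, 1.79 in concentrate and 2.69 in milk only.

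Over 14 groups of at least 100 keratinocytes, 5 hay, 5 concentrate and 4 milk-only, the levels of 7752 genes were set beside that of SLC14A1. The groups share libraries, so a likeness over all of them is largely a likeness between libraries. The highest Pearson correlations of log2(CPM + 1) were those of PCCA, a subunit of propionyl-CoA carboxylase (r 0.95), C1orf141 (0.95), MCCC1, a subunit of methylcrotonyl-CoA carboxylase (0.93), and MAOA, monoamine oxidase A (0.92). CCT3, a chaperonin subunit (0.92), UMPS, of pyrimidine synthesis (0.91), LAP3, an aminopeptidase (0.91), and MMP9, a matrix metalloproteinase (0.91), came next. These genes were chosen on the same groups, so their values within a library, over 5, 5 and 4 groups for hay, concentrate and milk only, only describe them. PCCA had r 0.96, 0.87 and 0.98, and MAOA 0.88, 0.83 and 0.89. The milk-only groups held only 0, 7, 8 and 19 SLC14A1 UMIs, and concentrate groups as few as 1 and 3, so these values are imprecise. The other 6 were low or negative in at least 1 library: MMP9 (-0.70), LAP3 (-0.20), UMPS (-0.11) and CCT3 (0.17) over the hay groups, MCCC1 (-0.17) over the concentrate groups and C1orf141 (-0.50) over the milk-only groups. PCCA had 168 CPM with hay and 160 CPM with concentrate, while milk-only cells had 74.8 CPM, and it was highest in the FBP1 and CYP26A1 cluster of hay, as was SLC14A1 among these groups.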

How the data were processed

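The deposited files hold raw UMI counts per gene and barcode for 3 libraries, made by the authors with Cell Ranger, version 3.1 per the submitters' processing notes and 5.0.0 per the file headers. For the genome build, the annotation release and the barcode selection, the authors' choice is not given in the sources used. The lowest UMI count of a barcode was 2263 for hay, 1047 for concentrate and 727 for milk only. The symbol SLC14A1 belonged to 1 identifier.

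The cell filter required 500 genes and a share below 20% for 13 mitochondrial genes, and no doublets were removed. Clustering used log values of counts scaled to a total of 10000, the 2000 most variable genes without SLC14A1, 30 principal components and 15 neighbours. Leiden at a resolution of 0.6 gave 14 clusters (scanpy 1.11.5, leidenalg 0.10.2). A cluster was named from a marker list with at least 3 markers at 20 CPM and 3 at 2-fold or more over other cells, and clusters with no such list were counted as other keratinocytes.

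Levels are UMIs summed over cells per 1000000 UMIs of the same cells. Intervals are 95% exact Poisson for levels, exact conditional binomial for ratios and Clopper-Pearson for shares (scipy 1.17.1). For 0 UMIs the upper limit was taken as 3 counts. Molecules were counted by UMI, and intervals and limits cover counting error only. A gene was called at 2-fold or more with an interval excluding 1, among genes with at least 100 UMIs over the keratinocytes of all libraries. Positive cells were compared with negative cells weighted over 10 depth bins, for genes whose mean of observed and expected UMIs was at least 20. Both steps were run on simulated counts with planted changes and counting error only. Such data cannot show how the steps handle differences between animals, libraries or cell types.

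Genes named beside SLC14A1 were the 8 highest and 5 lowest ratios in hay and in concentrate with at least 50 UMIs, the 8 highest correlations over cluster by library groups, and list members past 2-fold, up to 6 per list, of which some are not reported here. The gene, the lists and these rules were chosen with earlier results of these data known. Alternatives changed the cell filter, the scaling, the depth, the clusters, the count minimum and the matching of negative cells.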

Additional observations from a re-analysis of the deposited data

Results flagged for a closer look

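SLC14A1 was also counted in barcodes that the cell filter removed, which no comparison above uses. In those barcodes it stood at 15.04 CPM in the hay library (175 UMIs, 12.9 to 17.4) and at 5.64 CPM in the concentrate library (85 UMIs, 4.50 to 6.97), against 0.162 CPM in the milk-only library (2 UMIs, 0.0196 to 0.585). Nearly all of these UMIs lay in barcodes with at least 500 genes but 20% or more mitochondrial UMIs, at 16.2 CPM with hay, 8.68 CPM with concentrate and 0.352 CPM with milk only. Barcodes under 500 genes held 13 hay, 12 concentrate and 0 milk-only UMIs.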

How the results depend on the processing

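All 51 alternative values of the 3 level ratios kept the direction of the main value. On the log2 scale the hay over milk-only ratio of 4.13 was 3.26 in cycling keratinocytes and 3.38 with cells thinned to 2000 UMIs, and the concentrate over milk-only ratio of 3.36 was 2.495 and 2.35 under the same settings. The concentrate over hay ratio of -0.77 was -1.07 as a mean of per-cell CPM, -0.996 under median-of-ratios scaling and -1.03 after thinning. Whether this ratio reached 2-fold therefore depended on the setting. The share of positive keratinocytes was 0.486%, 0.685% and 0.0294% for hay, concentrate and milk only with at least 2 UMIs required, an order that differs from that of the levels, and 2.56%, 1.28% and 0.251% after thinning. It was 6.37% and 4.81% for hay and concentrate under 10% mitochondrial UMIs and 8.89% and 7.32% with at least 1000 genes. The highest cluster level was 19.6 CPM for hay at resolution 1.2, and 15.1 and 11.3 CPM for concentrate at resolutions 0.3 and 1.2. The differentiated class of hay had 9.34 CPM at resolution 0.3.

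The number of genes higher in positive hay cells was 1 without depth matching and 0 with at least 2 UMIs as positive, and lower genes numbered 5 with cluster matching and 5 with at least 2 UMIs. For concentrate, higher genes numbered 38 without depth matching and 23 with at least 2 UMIs, and lower genes 13 with cluster matching and 32 with at least 2 UMIs. A minimum of 10 CPM or of 1000 UMIs tests fewer genes: hay over milk only then had 87 or 84 higher and 460 or 408 lower, concentrate over milk only 125 or 119 higher and 302 or 255 lower, and concentrate over hay 177 or 150 higher and 29 or 27 lower. Median-of-ratios scaling gave 339 higher for hay over milk only, and 412 higher and 136 lower for concentrate over hay, with medians over all genes of -0.25, -0.02 and 0.22 moved to -0.01, 0.00 and -0.01 for hay over milk only, concentrate over milk only and concentrate over hay.

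With at least 2 UMIs as positive, the hay log2 ratios of TACC2 and SUOX turned to -0.32 and -0.12. Outside the cycling and differentiated clusters, GRHL1 in hay over milk only turned to 0.15 and DSC2 in concentrate over milk only to 0.072. Where none of these settings shows the reason by its construction, the cause was not tested. No paired analysis was possible because there is 1 library per diet, and for the same reason no library could be left out. The milk-only level rests on 34 UMIs, which limits every ratio to it.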
